A study of Mus musculus with 2 samples.

Results

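The genes described here make, take up, sense, store and export cholesterol and its precursors. They were taken as the rows of both gene tables whose gene name stands on a list of 31 members, and 30 of the 31 had a row among 23288 genes. Hmgcs1 was not analysed here. The list was divided by role into 6 early enzymes, 11 late enzymes, 4 sterol sensing genes, 3 uptake and transport genes, 5 genes of the liver X receptors and export, and the storage enzyme Soat1.

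Cells sense sterol at the membrane of the endoplasmic reticulum. When sterol is scarce, Scap carries the precursor of the transcription factor SREBP2 to the Golgi, where it is cut, and the released factor switches on the enzymes of synthesis and the genes of uptake. When sterol is plentiful, Insig proteins hold the Scap complex back, and oxysterols activate the liver X receptors (LXR), which switch on export pumps. Dividing lymphocytes need sterol for new membrane, and activated B and T cells are known for using the SREBP pathway.

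The 2 groups were Nedd4-/- and Nedd4+/+ splenic B cells, each as 1 library, from fetal liver chimeras on the strain background B6:129-backcrossed to B6. Nedd4 encodes a ubiquitin ligase. Both cultures had been held for 72 hours in medium with LPS, a bacterial product that activates B cells, and interleukin 4, and ribosomal RNA was removed before sequencing. The sources used here do not give the recipients of the fetal liver, what blood cells those hosts kept, or the number of animals behind each library.

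Each gene had a level in RPKM, which counts reads by transcript length and library size. Total read bases recovered from the tables came to 6.17 gigabases for Nedd4-/- cells and 8.40 gigabases for Nedd4+/+ cells. Genes of known length held 24.4% of the bases for Nedd4-/- cells and 32.6% for Nedd4+/+ cells. Nedd4 itself was measured at 1.95 RPKM in the Nedd4-/- library and 7.59 RPKM in the Nedd4+/+ library. Xist, an RNA of female cells, came to 0.0958 RPKM in the Nedd4-/- library and 23.7 RPKM in the Nedd4+/+ library, whereas the Y-linked Eif2s3y had 18.8 RPKM in Nedd4-/- cells and 5.14 RPKM in Nedd4+/+ cells. Nedd4+/+ cells thus held both female and male transcripts, so the libraries differ in sex composition, which cannot be told apart from genotype. The 7 B cell markers summed to 409 RPKM in the Nedd4-/- library and 522 RPKM in the Nedd4+/+ library. The 17 measured myeloid markers summed to 7.02 RPKM in the Nedd4-/- library and 4.10 RPKM in the Nedd4+/+ library, and the 5 T cell markers to 1.33 RPKM in Nedd4-/- cells and 0.503 RPKM in Nedd4+/+ cells. The 4 erythroid markers went the other way, with 2.01 RPKM in Nedd4-/- cells and 2.61 RPKM in Nedd4+/+ cells. So did the 4 stromal markers, with 2.21 RPKM in Nedd4-/- cells and 2.57 RPKM in Nedd4+/+ cells. All genes under 1 RPKM in both libraries had a median of 0.264 RPKM in Nedd4-/- cells and 0.130 RPKM in Nedd4+/+ cells.

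Differences were taken as the log2 ratio of Nedd4-/- over Nedd4+/+ with 1 RPKM added to both, among the 9405 genes with a mean of at least 1 RPKM, which took in 28 of the 30 members. The median of these genes was −0.31, so each ratio below is given relative to that median unless it is called the deposited ratio. On the relative scale, the 5th and 95th percentiles of these genes were −0.43 and 0.37. With 1 library per genotype no difference has a replicate check. Counting intervals are exact Clopper-Pearson 95% intervals of the log2 ratio of read pairs scaled to library size, without added RPKM and without centring, and cover counting error only. On their scale the median gene stood at −0.39. In RNA from a whole culture, fewer cells that express a gene and less of its RNA per cell cannot be told apart.

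Transcripts of the sterol synthesis enzymes were lower throughout the pathway in the Nedd4-/- library. All 17 measured enzymes were below the median of all genes, and their summed level was 121 RPKM in the Nedd4-/- library against 251 RPKM in the Nedd4+/+ library, or 48.3%. Over all 9405 genes the Nedd4-/- sum was 76.5% of the Nedd4+/+ sum. The median relative ratio of the enzymes was −0.57, with a range of −1.02 to −0.24. The counting interval of each of the 17 lay wholly below the median gene, as did that of 23.2% of 9231 genes with an interval.

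**Figure D1:**
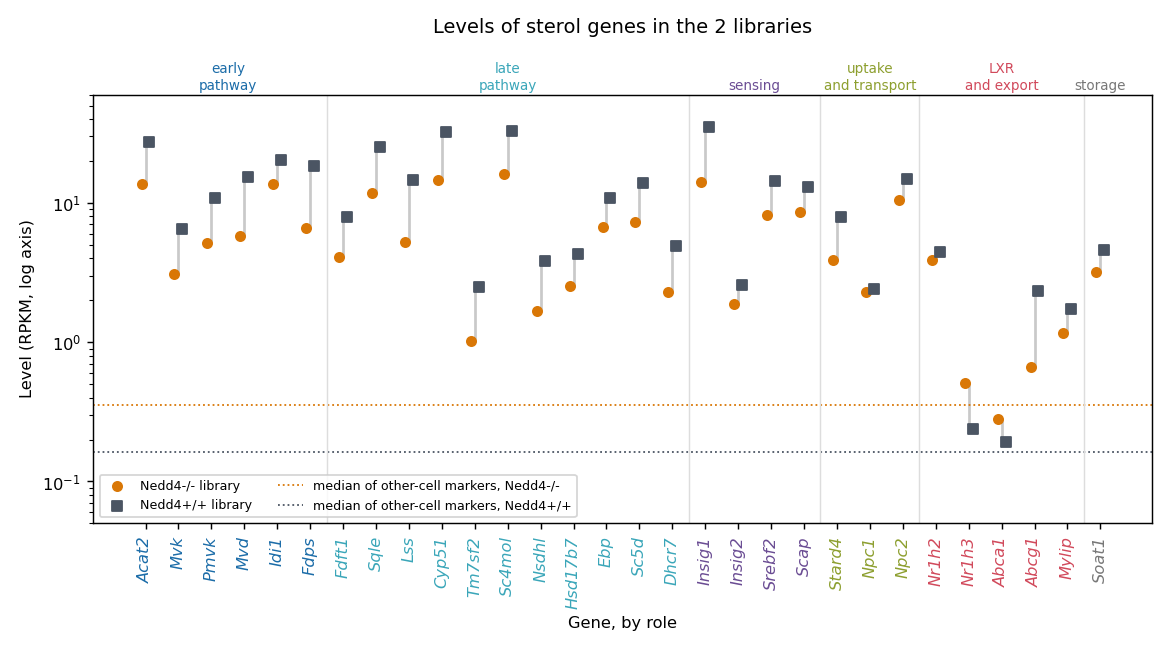
Levels of the 30 measured sterol genes in RPKM, on a log axis, by role. Each gene has 1 point for the Nedd4-/- library and 1 for the Nedd4+/+ library, with no error bars because there was 1 library per genotype, and dotted lines mark the median of the 30 markers of other cells, 0.357 RPKM in Nedd4-/- and 0.163 RPKM in Nedd4+/+. The Nedd4-/- point lies below the Nedd4+/+ point for every synthesis enzyme, with Fdps at 6.65 RPKM in Nedd4-/- and 18.3 RPKM in Nedd4+/+, whereas Npc1 and Nr1h2 lie close together.

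The early enzymes build farnesyl diphosphate, a precursor of sterols, prenyl anchors, dolichol and ubiquinone, from acetyl-CoA. Acat2, the cytosolic thiolase that joins acetyl units, came to 13.6 RPKM in the Nedd4-/- library and 27.3 RPKM in the Nedd4+/+ library, a relative ratio of −0.64. Mevalonate kinase, Mvk, had 3.07 RPKM in Nedd4-/- cells and 6.50 RPKM in Nedd4+/+ cells, a relative ratio of −0.57. Pmvk, the next kinase, had 5.20 RPKM in Nedd4-/- cells and 10.8 RPKM in Nedd4+/+ cells, a relative ratio of −0.62. These 3 genes thus lay close together, at 47.2% to 49.9% of the Nedd4+/+ level. Mvd, the decarboxylase that ends the mevalonate steps, was lower still, at 5.82 RPKM in the Nedd4-/- library against 15.3 RPKM in the Nedd4+/+ library, a relative ratio of −0.94. Idi1, the isomerase that balances the isoprene units, had 13.6 RPKM in the Nedd4-/- library and 20.4 RPKM in the Nedd4+/+ library, a relative ratio of −0.24. It was the enzyme with the smallest difference in the whole pathway.

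Farnesyl diphosphate synthase, Fdps, on chromosome 3, had the lowest relative ratio of all tested members. It came to 6.65 RPKM in the Nedd4-/- library and 18.3 RPKM in the Nedd4+/+ library, or 36.4%, with a ratio of −1.02 and a counting interval of −1.67 to −1.26. Only 0.191% of tested genes had a lower relative ratio. Of the windows of the read length along the Fdps transcript, 69.6% also occur in annotated transcripts of other genes. Gm43738 alone shares 66% of the windows, and its exons are annotated over 76.4% of the Fdps transcript on the same strand. Reads of Fdps could have been split with these genes, and its values are uncertain to that extent. The same holds in part for Acat2, with 35.1% of its windows shared, for Idi1, with 27.6%, and for Fdft1, with 21.4%. For Fdft1 most shared windows come from Ctsb, whose exons overlap it on the opposite strand. Acat3, the near copy of Acat2, was at 22.5 RPKM in the Nedd4-/- library and 28.1 RPKM in the Nedd4+/+ library, a relative ratio of 0.01. Idi1 shared the most windows with Gm13502, Gm48574 and Gm35570, and its copy Idi2 is not among these. Idi2 was at 0.231 RPKM in the Nedd4-/- library and 0.122 RPKM in the Nedd4+/+ library.

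The late enzymes turn farnesyl diphosphate into squalene, close it into lanosterol and trim lanosterol to cholesterol. Squalene synthase, Fdft1, which commits the pathway to sterols, had 4.07 RPKM in Nedd4-/- cells and 7.89 RPKM in Nedd4+/+ cells, a relative ratio of −0.50. Squalene epoxidase, Sqle, had 11.8 RPKM in Nedd4-/- cells and 25.2 RPKM in Nedd4+/+ cells, a relative ratio of −0.72. Lanosterol synthase, Lss, which closes the rings, had 5.27 RPKM in Nedd4-/- cells and 14.7 RPKM in Nedd4+/+ cells. At 35.9% of the Nedd4+/+ level, a relative ratio of −1.01 and a counting interval of −1.60 to −1.36, Lss stood beside Fdps as the other member at least 2-fold lower than the median gene. Lss overlaps an antisense gene, 4930483K19Rik, at 1.25 RPKM in Nedd4-/- cells and 2.85 RPKM in Nedd4+/+ cells, and without a stated strand setting reads of the overlap cannot be told apart.

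Trimming of lanosterol begins with Cyp51, the lanosterol demethylase, which had 14.7 RPKM in the Nedd4-/- library and 32.3 RPKM in the Nedd4+/+ library, a relative ratio of −0.78. Sc4mol, the oxidase for the methyl groups of the first ring, had 16.2 RPKM in Nedd4-/- cells and 32.6 RPKM in Nedd4+/+ cells, a relative ratio of −0.65. These were the most abundant enzymes in both libraries, and both were at or below 49.7% of the Nedd4+/+ level. The enzymes after them were at lower levels, where the added 1 RPKM shrinks the ratio. Tm7sf2, a sterol reductase, had 1.03 RPKM in Nedd4-/- cells and 2.51 RPKM in Nedd4+/+ cells, or 40.9%, a relative ratio of −0.48 from 46 read pairs in Nedd4-/- and 153 in Nedd4+/+. Nsdhl, the dehydrogenase that works with Sc4mol, had 1.67 RPKM in Nedd4-/- cells and 3.83 RPKM in Nedd4+/+ cells, a relative ratio of −0.54. Hsd17b7, the ketone reductase of the same complex, had 2.52 RPKM in Nedd4-/- cells and 4.26 RPKM in Nedd4+/+ cells, a relative ratio of −0.27.

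Ebp, the isomerase that moves a ring double bond, came out at −0.29, with 6.77 RPKM in the Nedd4-/- library and 10.8 RPKM in the Nedd4+/+ library. The desaturase Sc5d had 7.26 RPKM in Nedd4-/- cells and 13.8 RPKM in Nedd4+/+ cells, a relative ratio of −0.53. Dhcr7, which makes cholesterol from its immediate precursor, had 2.27 RPKM in Nedd4-/- cells and 4.93 RPKM in Nedd4+/+ cells, a relative ratio of −0.55. Nsdhl and Ebp lie on the X chromosome, and the libraries differ in sex composition. The 282 tested X-linked genes had a median relative ratio of −0.01. The early enzymes had a median of −0.63 and the late enzymes one of −0.54, and their ranges overlapped.

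**Figure D2:**
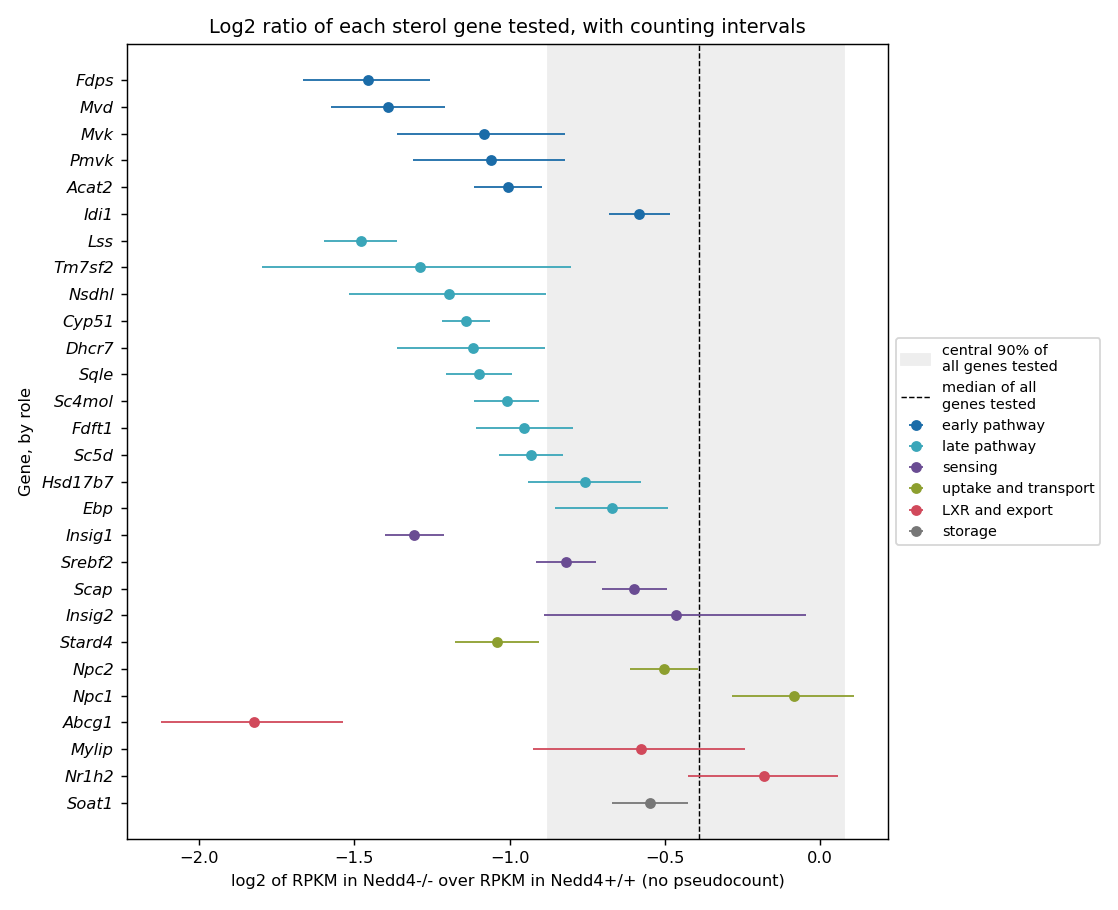
Log2 ratio of Nedd4-/- over Nedd4+/+ without added RPKM for each tested sterol gene, by role, with bars for the exact 95% counting interval, a dashed line for the median of all tested genes at −0.39, and a grey band for their 5th to 95th percentiles, −0.88 to 0.08. The intervals of all 17 enzymes end below that line, and those of Insig2, Nr1h2 and Mylip cross it.

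By the rule of at least 2-fold on the deposited ratio, 7 of 28 tested members were lower in the Nedd4-/- library, namely Abcg1, Cyp51, Fdps, Insig1, Lss, Mvd and Sqle, and 0 were higher. Of all tested genes, 1.15% were lower and 0.138% higher by that rule. Relative to the median, 2 members were at least 2-fold lower and 0 higher, where 0.223% of all genes were lower and 0.276% higher. At 1.5-fold relative to the median, 10 members were lower and 0 higher, where 2.05% of all genes were lower and 1.23% higher. To the 7 named, this rule adds Acat2, Pmvk and Sc4mol. Of the 10, 8 are synthesis enzymes, and Insig1 and Abcg1 are the others.

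The enzymes were expressed at unequal levels, and the order was much alike in the libraries. In the Nedd4-/- library the 6 most abundant members were Sc4mol, Cyp51, Insig1, Idi1, Acat2 and Sqle. In the Nedd4+/+ library they were Insig1, Sc4mol, Cyp51, Acat2, Sqle and Idi1. The same 6 genes led both, with Insig1 in first place in the Nedd4+/+ library only.

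Among the sensing genes, Insig1 differed most. It encodes the anchor that holds Scap in the endoplasmic reticulum and is itself a target of SREBP2. Its level was 14.2 RPKM in the Nedd4-/- library and 35.2 RPKM in the Nedd4+/+ library, or 40.4%, with a relative ratio of −0.94 and a counting interval of −1.40 to −1.21. Insig2, the paralog with the same anchoring role, had 1.88 RPKM in Nedd4-/- cells and 2.59 RPKM in Nedd4+/+ cells, a relative ratio of −0.01, which is level with the median gene. Its counting interval was wide, −0.89 to −0.05, from 74 read pairs in Nedd4-/- and 139 in Nedd4+/+. In RPKM, there was 7.59 times as much Insig1 as Insig2 in Nedd4-/- cells and 13.6 times as much in Nedd4+/+ cells.

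Srebf2, which encodes SREBP2, was at 8.17 RPKM in the Nedd4-/- library and 14.4 RPKM in the Nedd4+/+ library, a relative ratio of −0.44, and 4.80% of tested genes were lower. Scap, its escort, had 8.56 RPKM in Nedd4-/- cells and 13.0 RPKM in Nedd4+/+ cells, a relative ratio of −0.23. Both were lower than the median gene by less than 1.5-fold, and both differed less than the median enzyme. Srebf1, the sister gene for the SREBP of fatty acid synthesis, had 6.16 RPKM in the Nedd4-/- library and 11.7 RPKM in the Nedd4+/+ library, a relative ratio of −0.51.

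The 3 uptake and transport genes spread from −0.57 to 0.25 relative to the median gene, and all were below 0 as deposited ratios. Stard4, a soluble sterol carrier and SREBP2 target, followed the enzymes with 3.86 RPKM in the Nedd4-/- library and 7.95 RPKM in the Nedd4+/+ library, a relative ratio of −0.57. Npc2, the soluble protein that passes cholesterol within the lysosome, had 10.5 RPKM in Nedd4-/- cells and 14.8 RPKM in Nedd4+/+ cells, a relative ratio of −0.15. Npc1, its membrane partner, was nearly level, at 2.29 RPKM in Nedd4-/- cells and 2.43 RPKM in Nedd4+/+ cells, with a relative ratio of 0.25 that becomes a deposited ratio of −0.06. It was the only tested member whose counting interval, −0.28 to 0.11, lay wholly above the median gene, as did that of 18.8% of all genes with an interval. Npc1 shared 6.21% of its read-length windows with another gene, Rmc1.

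The LXR side was low in expression, and its 3 tested members spread from −0.70 to 0.17 relative to the median gene. Nr1h2, the LXR found in most tissues, had 3.90 RPKM in Nedd4-/- cells and 4.42 RPKM in Nedd4+/+ cells, a relative ratio of 0.17, or −0.15 as the deposited ratio. Nr1h3, the LXR of liver and macrophages, was at 0.506 RPKM in the Nedd4-/- library and 0.240 RPKM in the Nedd4+/+ library. The export pump Abca1 was at 0.283 RPKM in Nedd4-/- cells and 0.193 RPKM in Nedd4+/+ cells. Nr1h3 and Abca1 were thus below the 1 RPKM minimum and near the level of genes that B cells should lack. The 30 markers of T, myeloid, erythroid and stromal cells had a median of 0.357 RPKM in the Nedd4-/- library and 0.163 RPKM in the Nedd4+/+ library. Nr1h3 and Abca1 were both higher in Nedd4-/- cells, and so was this floor. With the marker median of each library subtracted, Abca1 came to −0.074 RPKM in Nedd4-/- cells and 0.030 RPKM in Nedd4+/+ cells, and its higher value in Nedd4-/- cells was gone. Nr1h3 then came to 0.149 RPKM in Nedd4-/- cells and 0.077 RPKM in Nedd4+/+ cells, so its higher value in Nedd4-/- cells remained. It rests on 30 read pairs in Nedd4-/- and 19 in Nedd4+/+ before the subtraction.

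Abcg1, the pump that passes cholesterol to mature lipoprotein particles, was lower in the Nedd4-/- library. It was at 0.663 RPKM in the Nedd4-/- library and 2.35 RPKM in the Nedd4+/+ library, or 28.3%, from 118 read pairs in Nedd4-/- and 569 in Nedd4+/+. Its relative ratio was −0.70 and its counting interval −2.12 to −1.54. Only 1.11% of tested genes were lower, and by percent of the Nedd4+/+ level Abcg1 was the lowest of all tested members. With the same subtraction it came to 14.0% of the Nedd4+/+ level. Mylip, the ubiquitin ligase that marks lipoprotein receptors for decay, had 1.17 RPKM in Nedd4-/- cells and 1.74 RPKM in Nedd4+/+ cells, a relative ratio of −0.03. Soat1, which esterifies cholesterol for storage and belongs to neither side, had 3.16 RPKM in Nedd4-/- cells and 4.63 RPKM in Nedd4+/+ cells, a relative ratio of −0.12.

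Set against each other, the SREBP2 side of 24 tested genes had a median relative ratio of −0.54 and the LXR side of 3 tested genes one of −0.03, a difference of −0.52. On the SREBP2 side 23 of 24 members were below the median gene and 9 were at least 1.5-fold lower. Of all tested genes, 2.05% were at least 1.5-fold lower. Summed levels were 171 RPKM in the Nedd4-/- library and 342 RPKM in the Nedd4+/+ library for the SREBP2 side. For the 5 genes of the LXR side they were 6.52 RPKM in the Nedd4-/- library and 8.94 RPKM in the Nedd4+/+ library, or 72.9%. The contrast rests on Nr1h2 and Mylip, since Abcg1 lay within the range of the enzymes. With the receptors left out, so that only Abcg1 and Mylip remained tested, the difference was −0.18.

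**Figure D3:**
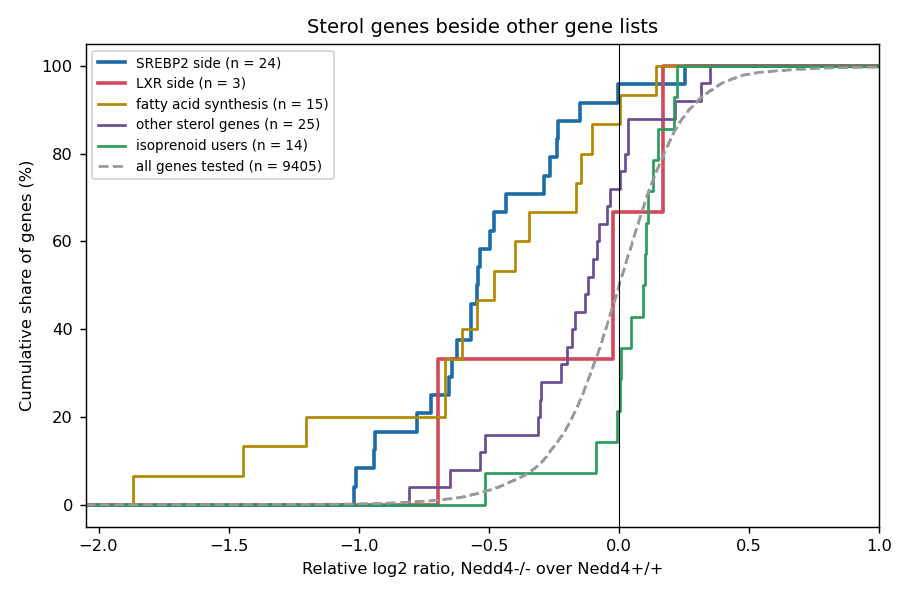
Cumulative share of genes by relative log2 ratio of Nedd4-/- over Nedd4+/+, as 1 step curve each for the SREBP2 side, the LXR side, fatty acid synthesis genes, other sterol genes, isoprenoid users and all 9405 tested genes, with values past the axis drawn at its ends. The curve of the SREBP2 side lies left of that of all genes, with a median of −0.54, and that of isoprenoid users lies near all genes, with a median of 0.09.

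Other genes of sterol handling, outside the members, had a median nearer to that of all genes. Of 35 genes on that list 25 were tested, with a median of −0.12, and 2 were at least 1.5-fold lower and 0 higher. By that rule 2.05% of all tested genes were lower and 1.23% higher. Osbpl9, an oxysterol binding protein relative, had 8.87 RPKM in Nedd4-/- cells and 14.2 RPKM in Nedd4+/+ cells, a relative ratio of −0.31. Mbtps1, the protease that makes the first cut in the SREBP precursor, had 4.77 RPKM in Nedd4-/- cells and 7.85 RPKM in Nedd4+/+ cells, a relative ratio of −0.30. Rxra and Mbtps2 differed slightly more in the other direction, with relative ratios of 0.35 and 0.31. Of the 25 tested genes 18 were below the median gene and 7 above. The 14 genes that use farnesyl and related diphosphates for other ends had a median of 0.09, and 0 of them passed the 1.5-fold rule in either direction. Dhdds, which starts dolichol, was the lowest, with 4.15 RPKM in Nedd4-/- cells and 8.16 RPKM in Nedd4+/+ cells and a relative ratio of −0.52. Rce1, a protease of prenylated proteins, had 4.68 RPKM in Nedd4-/- cells and 5.04 RPKM in Nedd4+/+ cells, a relative ratio of 0.22.

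Fatty acid synthesis, the arm of the SREBP pathway most like sterol synthesis, had a similar median. Of 15 tested genes 13 were below the median gene, and the median was −0.48. At least 1.5-fold lower were 6 of the 15, against 2.05% of all tested genes. Scd2, a desaturase of fatty acids, had 11.4 RPKM in Nedd4-/- cells and 55.3 RPKM in Nedd4+/+ cells, a relative ratio of −1.87. Scd1, its paralog, had 15.0 RPKM in Nedd4-/- cells and 53.1 RPKM in Nedd4+/+ cells, a relative ratio of −1.45. Both relative ratios were lower than that of any sterol gene described here. Acly, which supplies cytosolic acetyl-CoA to both arms, had 19.7 RPKM in Nedd4-/- cells and 39.9 RPKM in Nedd4+/+ cells, a relative ratio of −0.67. The difference between the lists was not tested.

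The 5 plasmablast markers moved in the same direction as the enzymes. They summed to 222 RPKM in the Nedd4-/- library and 430 RPKM in the Nedd4+/+ library. All 5 were below the median gene, with relative ratios of −0.84 to −0.18. Of the 5, 3 were at least 1.5-fold lower, as were 2.05% of all tested genes. None of the 5 was at 0 in either library. The 7 B cell markers had relative ratios of −0.54 to 0.47, with a median of −0.10. The part of cell makeup in the sterol values was not tested.

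Promoter sequences were read from RefSeq on build GRCm38.p6 for the members that had an entry, 24 of 30, as the 250 bases before the start of the gene and 50 after it. The 4 shown do not span the observed range. Lss, Mvd and Insig1 had the lowest relative ratios on the SREBP2 side among tested members with a single window. Nr1h2 had the highest level among such members of the LXR side. Capitals mark the motifs, which were searched on both strands. The CCAAT box, the usual site of the SREBP partner NF-Y, was searched as ATTGG. The GC box was searched as GGGCGG and the E-box as CACGTG. A nuclear receptor site was searched as its single repeat AGGTCA. For the core of the sterol regulatory element the letters TCACNCCAC were used. The windows are Lss at chr10:76531355-76531654 on the plus strand, Mvd at chr8:122443373-122443672 on the minus strand, Insig1 at chr5:28071162-28071461 on the plus strand and Nr1h2 at chr7:44553916-44554215 on the minus strand.
Lss: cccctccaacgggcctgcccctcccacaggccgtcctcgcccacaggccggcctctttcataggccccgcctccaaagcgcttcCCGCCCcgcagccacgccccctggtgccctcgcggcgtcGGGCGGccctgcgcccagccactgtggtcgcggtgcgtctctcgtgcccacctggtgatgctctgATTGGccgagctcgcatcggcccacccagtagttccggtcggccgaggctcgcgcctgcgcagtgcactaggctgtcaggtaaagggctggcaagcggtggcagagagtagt
Mvd: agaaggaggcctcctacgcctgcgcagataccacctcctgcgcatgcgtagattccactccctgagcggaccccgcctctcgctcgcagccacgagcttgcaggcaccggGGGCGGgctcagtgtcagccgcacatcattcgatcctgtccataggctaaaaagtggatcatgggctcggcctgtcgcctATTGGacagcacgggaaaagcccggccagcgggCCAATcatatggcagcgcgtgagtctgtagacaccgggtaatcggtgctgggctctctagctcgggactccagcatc
Insig1: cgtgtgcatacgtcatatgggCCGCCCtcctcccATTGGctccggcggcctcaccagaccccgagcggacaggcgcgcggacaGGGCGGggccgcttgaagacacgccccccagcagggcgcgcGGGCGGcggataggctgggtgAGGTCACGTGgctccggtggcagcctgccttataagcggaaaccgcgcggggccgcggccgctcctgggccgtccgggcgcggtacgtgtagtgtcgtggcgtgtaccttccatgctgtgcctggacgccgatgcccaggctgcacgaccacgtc
Nr1h2: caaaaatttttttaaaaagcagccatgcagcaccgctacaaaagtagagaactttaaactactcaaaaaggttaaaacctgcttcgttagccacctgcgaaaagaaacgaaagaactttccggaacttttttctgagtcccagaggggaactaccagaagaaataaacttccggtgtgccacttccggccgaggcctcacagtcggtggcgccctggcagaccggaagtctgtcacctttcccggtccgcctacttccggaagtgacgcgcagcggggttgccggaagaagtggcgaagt

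The CCAAT box was common on the SREBP2 side. It was present for 17 of 19 genes of that side and for 1 of 4 of the LXR side, Mylip. It was present for 41.1% of all 27025 genes with a window and 43.9% of the 7392 tested genes with one. These and the following shares of promoters count genes, and a gene with several windows counted if any window held the motif. Genes with more windows thus had more chances to match. The GC box was present in 18 of 19 promoters of the SREBP2 side and 2 of 4 of the LXR side, against 38.2% of all promoters and 70.4% of those of tested genes. Mvd has CCAAT boxes that begin 60 and 27 bases before the start and Lss has a CCAAT box 62 bases before it, whereas Nr1h2 holds none of the motifs. Insig2, Npc2 and Mylip, with relative ratios of −0.01, −0.15 and −0.03, hold both the CCAAT box and the GC box. An E-box was found in 6 of 24 member promoters, against 8.09% of all promoters and 12.6% of those of tested genes. In Insig1 it overlaps a nuclear receptor repeat. That repeat was found in 2 of 24, Dhcr7 and Insig1, and in 0 of 4 on the LXR side, against 18.1% of all promoters and 13.9% of those of tested genes. No window of the 24 members held the exact letters of the sterol regulatory core, which occur in 1.44% of all promoters and 1.29% of those of tested genes. These matches describe letters and not bound sites.

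The kilobase upstream of each gene gave a readout that the gene level does not include. Of 30 member windows, 24 had a mean of at least 0.2 RPKM, and their log2 ratio with 0.1 RPKM added was taken relative to the median of 11837 such windows, which was 0.41. The members had a median of 0.00 on this scale. By the 2-fold rule on the uncentred ratio, 5 windows were higher in the Nedd4-/- library, those of Sqle, Lss, Npc1, Nr1h2 and Mylip, and 0 were lower. Among all windows 19.8% were higher and 0.794% lower, so the share of members was near that of all windows. The windows of the SREBP2 side had a median of −0.12 on the relative scale.

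Upstream of Lss the level was 0.337 RPKM in the Nedd4-/- library and 0.080 RPKM in the Nedd4+/+ library, opposite in direction to the gene itself. Sqle showed the same opposition, with 0.576 RPKM upstream in Nedd4-/- cells and 0.187 RPKM in Nedd4+/+ cells. The uncentred medians were also opposite, −0.31 for tested genes and 0.41 for windows, so opposite directions are not particular to Lss and Sqle. Relative to the median window, those of Lss and Sqle were at 0.87 and 0.82. Upstream of Npc1 there was 0.487 RPKM in Nedd4-/- cells and 0.022 RPKM in Nedd4+/+ cells. A single read pair in such a window is worth 0.0328 RPKM in the Nedd4-/- library and 0.0241 RPKM in the Nedd4+/+ library, so these values rest on few pairs. The upstream window of Cyp51 was lower, like its gene, at 0.153 RPKM in Nedd4-/- cells and 0.293 RPKM in Nedd4+/+ cells, and so was that of Insig1, at 0.644 RPKM in Nedd4-/- cells and 1.02 RPKM in Nedd4+/+ cells. On the SREBP2 side 11 of 19 tested windows were higher in Nedd4-/- cells and 8 lower, and on the LXR side all 5 were higher, 2 of them by at least 2-fold. Over all 11837 windows 71.2% were higher in Nedd4-/- cells, so neither count is read as a difference between the sides.

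**Figure D4:**
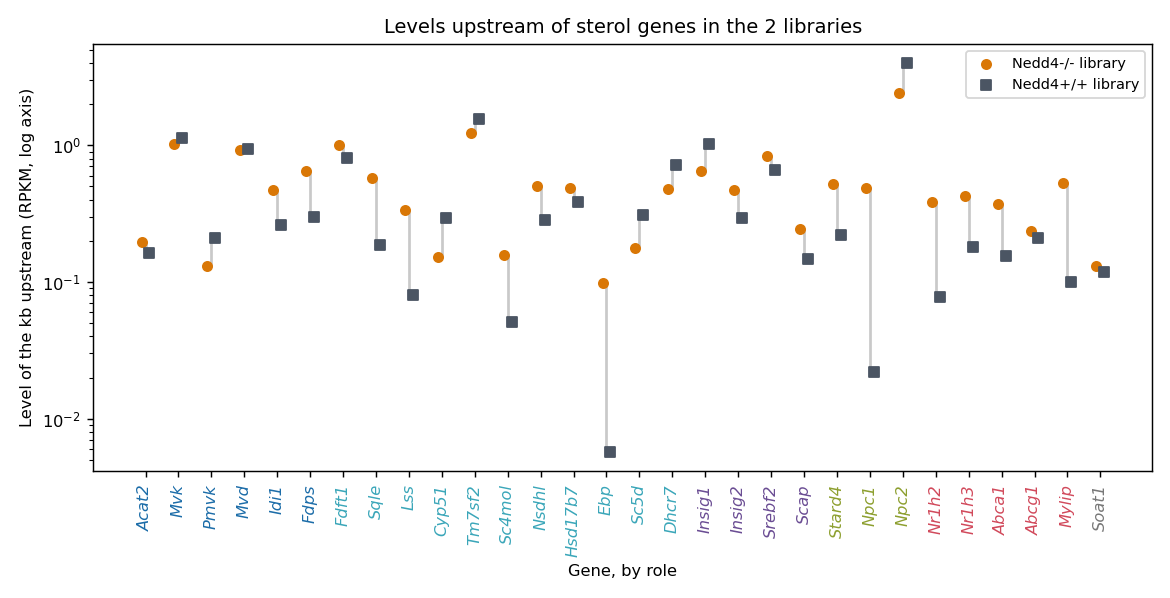
Level of the kilobase upstream of each of the 30 measured sterol genes in RPKM, on a log axis, by role, with 1 point for the Nedd4-/- library and 1 for the Nedd4+/+ library and no error bars. Lss and Sqle lie higher in Nedd4-/-, Cyp51 and Insig1 lower, and the 5 genes of the LXR side lie higher in Nedd4-/-, as did 71.2% of all windows.

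For 11 members the upstream kilobase overlaps an annotated gene. Mvk, for example, is head to head with Mmab, an enzyme of cobalamin metabolism that had 1.49 RPKM in Nedd4-/- cells and 2.80 RPKM in Nedd4+/+ cells, a relative ratio of −0.30. The upstream window of Mvk held 1.01 RPKM in Nedd4-/- cells and 1.12 RPKM in Nedd4+/+ cells. Npc2, with Isca2 upstream, had the highest upstream level of the members, 2.40 RPKM in the Nedd4-/- library and 3.97 RPKM in the Nedd4+/+ library. Reads of the neighbour count toward these windows, and without a stated strand setting they cannot be told apart from upstream reads.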

How the data were processed

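RNA of 1 Nedd4-/- and 1 Nedd4+/+ culture was compared. Per the submitters' processing notes, TopHat, Cufflinks and build mm9 were used, with no version or role. The strand setting and the treatment of reads with several matches were not given in the sources used here. Gene values are in RPKM per the file headers, as deposited. The deposited upstream column was planned as a level, but its values are a ratio of the window level to RPKM + 0.0001; the product was used as the level in RPKM. Whole read bases resulted, within 0.05 bases, in 100% of 17714 low windows of Nedd4-/- and 99.99% of 18656 of Nedd4+/+, which gave the depth and the read pairs.

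Members and lists were chosen with earlier results of these data known. No p-value was computed with 1 library per genotype. Every member is named, and of other lists up to 4 genes with the largest absolute relative ratio. Osbpl9, Mbtps1, Rxra and Mbtps2 are named although they lie outside the 4 of their list. Genes set beside members for position, copy or role (Mmab, Isca2, Acat3, Idi2) and Gpr183 with the oxysterol enzymes were named after their values were seen. Some genes the rule takes are not reported here. Names, lengths, shared windows and neighbours came from GENCODE on GRCm38, and no mm9 coordinates are given. A planned comparison of paralog proteins was not run. The ratio step was tested on simulated data. Python 3.11.15, numpy 2.4.6, pandas 2.3.3, scipy 1.17.1 and matplotlib 3.10.9 were used. The alternatives changed the pseudocount, minimum level, centring, LXR members and upstream offset; subtraction of the marker background and leaving out members with shared windows were added after seeing the data.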

Additional observations from a re-analysis of the deposited data

How the results depend on the processing

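No paired analysis was possible because each genotype had 1 library, and for the same reason no replicate could be left out. Under 10 alternatives all 165 values of the synthesis enzymes were below 0, and of 251 values of members below the median gene 247 stayed below 0. The alternatives all rescale the same 2 libraries, so this is no replicate check. Without centring, below 0 does not mean below the median tested gene, which stood at −0.31. Without a minimum level, 0 was the median of all genes with reads. The size depended on the scale. Unless stated, the share of all genes was not computed under the alternatives, so these counts are not set against a background. With 0.1 RPKM added, 14 of 28 members were at least 2-fold lower on the deposited ratio. With 5 RPKM added it was 1, with 0 relative to the median and an SREBP2 side median of −0.35. Without a minimum level the medians were −0.88 for the SREBP2 side and −0.91 for the enzymes, with 7 of 30 members at 2-fold and 20 at 1.5-fold. Not centred, the medians were −0.86 and −0.88, with −0.34 for the LXR side. The counts were then 7 of 28 members at 2-fold, against 1.15% of all genes, and 19 at 1.5-fold. The 2 members at 2-fold relative to the median became 0 with a minimum of 5 RPKM (which left no LXR member), with centring on summed RPKM or within 10 bins of level, and 1 within 10 bins of transcript length. With only Abca1, Abcg1 and Mylip on the LXR side its median was −0.36 and the difference of the sides −0.18. Among settings added after seeing the data, subtracting the marker background left 1 member at 2-fold. Without the members that share read-length windows, the counts among the 20 left were 0 at 2-fold, 6 at 1.5-fold and 4 on the deposited ratio. Upstream, 9 windows were higher with 0.01 RPKM added and 0 with 1 RPKM, and the column as deposited gave a median of 0.50 and 2 higher. Depth limits Nr1h3 (30 read pairs in Nedd4-/- and 19 in Nedd4+/+), Abca1 and Tm7sf2 most, and sex composition, cell makeup and genotype all differ between the same 2 libraries.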

Other observations

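Oxysterols, which activate LXR, also guide B cells in the spleen through the receptor Gpr183. Gpr183 was at 14.9 RPKM in the Nedd4-/- library and 20.4 RPKM in the Nedd4+/+ library, a relative ratio of −0.12, close to the median gene. The enzymes that make and break its ligands were under 1 RPKM in both libraries. Ch25h, which adds a hydroxyl group to the cholesterol side chain, was at 0.545 RPKM in Nedd4-/- cells and 0.147 RPKM in Nedd4+/+ cells. Cyp7b1, which makes the Gpr183 ligand from its product, was at 0.111 RPKM in Nedd4-/- cells and 0.076 RPKM in Nedd4+/+ cells, and Hsd3b7, which inactivates the ligand, at 0.723 RPKM in Nedd4-/- cells and 0.540 RPKM in Nedd4+/+ cells. All 3 were higher in Nedd4-/- cells, as were genes under 1 RPKM in both libraries as a whole, whose median was 0.264 RPKM in Nedd4-/- cells and 0.130 RPKM in Nedd4+/+ cells. With the marker median of each library subtracted, Ch25h came to 0.188 RPKM in Nedd4-/- cells and −0.016 RPKM in Nedd4+/+ cells, Hsd3b7 to 0.366 RPKM in Nedd4-/- cells and 0.377 RPKM in Nedd4+/+ cells, and Cyp7b1 was below 0 in both.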
